A study of Mus musculus with 8 samples.

Results

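The genes described here are 10 apolipoprotein genes, Apoa1, Apoa2, Apoa4, Apoa5, Apob, Apoc1, Apoc2, Apoc3, Apoe and Apom. They were chosen by name, with earlier results of these data known. All 10 were measured, each by 1 probe, among 19896 named genes on the array. Liver RNA came from 3 mice labelled as knockouts of Me1 (Mod1 in the titles), the gene of the cytosolic malic enzyme, and from 5 littermates labelled wild type. The knockouts are numbered 27, 31 and 33 and the wild types 14, 15, 21, 22 and 26, and values are listed in these orders. Each mouse was read on a 2-colour array against the same reference, liver RNA pooled from 5 wild types. The labels give no age, sex, strain, diet, feeding state or construction of the Me1 allele. Every value below is a log2 ratio of 1 mouse to the pool, so 0 means the level of the pool and positive values mean more RNA than in it. Such ratios hold no absolute level, so 2 genes' levels cannot be ranked, and the hepatocyte markers could be checked for variation only, not for presence.

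Apolipoproteins are the protein coat of the particles that carry triglyceride and cholesterol in blood. Apob forms the backbone of the triglyceride-rich particles that liver and intestine secrete, and Apoa1 forms that of high-density lipoprotein. The smaller members move between particles and set how fast lipoprotein lipase unloads them or how receptors take them up. The liver is the main source of most of them, while Apoa4 is made mostly by the intestine and, in mice, rises in the liver with fasting and fat storage.

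No member passed the test between the genotypes, and the widest gap lay in Apoa4. The mean of Apoa4 was -2.22 ± 0.35 in 3 knockouts, against -0.24 ± 1.11 in 5 wild types (mean ± SD). Apoa5, which promotes triglyceride clearance, stood slightly lower in the knockout, Apom, a carrier of sphingosine 1-phosphate, stood higher, and the remaining differences were small or had wide errors. The test was limma with Benjamini-Hochberg adjustment over all 36169 features of the table at a threshold of 0.05. It called 0 of the 10 members, against 0.0276% of all features. At an unadjusted p of 0.05 it called 2 of the 10, Apoa4 and Apoa5, both lower in the knockout, against 9.28% of all features (4.26% higher and 5.02% lower in the knockout). In 0 of the 10 did the 3 knockout values lie wholly outside the 5 wild-type values, against 7.21% of all features (4.35% higher and 2.85% lower). The difference of knockout minus wild type was above 0 in 3 members and below 0 in 7, with a median of -0.050. That median was -0.0009 without knockout mouse 27 and -0.11 without knockout mouse 31. Of named genes 50.1% were below 0, with a median of -0.0003. With the knockout sign turned, as explained next, 0 of the 10 passed the adjusted test, against 0.0221% of features. At an unadjusted p of 0.05 the 2 members were then Apoa1, lower, and Apoa4, higher in the knockout, against 11.5% of features, and Apoa5 was no longer among them.

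Several facts of the series bear on every value. The direction and the base of the deposited log ratios are not stated. Read as log10 of mouse over pool, the mean linear ratio of the 5 wild types had a median of 0.996 over the 300 most variable probes. That median was 1.33 with the opposite sign and 0.971 as log2, so mouse over pool is the likely direction, while the base is less clearly set. Log10 is used below. Read as log2, all values would shrink in proportion with the same p, so that Apoa4 would differ by -0.59, Apom by 0.21, Apoe by -0.20 and Apoa5 by -0.099. Only the wild types enter that calculation, and 3 pairs of arrays correlated below -0.3 over all probes, so the direction is not settled. These were knockout mouse 33 with wild-type mouse 14 (-0.394), wild-type mice 22 and 14 (-0.322) and wild-type mice 26 and 22 (-0.459). Turning all arrays leaves these values unchanged, so the pairs do not set the direction. Wild types read against a pool that holds them can correlate negatively, but whether the pool held these mice is not stated. That would not cover the pair with knockout mouse 33, and the cause of the negative values was not tested. Because no wild-type value checks the knockout columns, a second value with the sign of these 3 columns reversed stands beside each member's difference. The titles of all 8 arrays name pool and mouse in the same form, so no label sets the knockout columns apart. Turning all 8 arrays would change every sign. The Me1 probe did not separate the genotypes: it read 0.82, -0.81 and -0.68 in the knockouts and 0.82, -0.64, -0.70, -1.73 and 0.70 in the wild types (exact permutation p = 0.875, two-sided, smallest possible 0.0179). Its position in the transcript is not known here, and the genotypes rest on the labels. The spread of all log2 ratios was widest in wild-type mouse 22 (SD 0.291) and knockout mouse 33 (0.273), and lay between 0.127 and 0.215 in the other mice. In whole tissue, fewer cells of a type and less RNA per cell cannot be told apart.

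**Figure D1:**
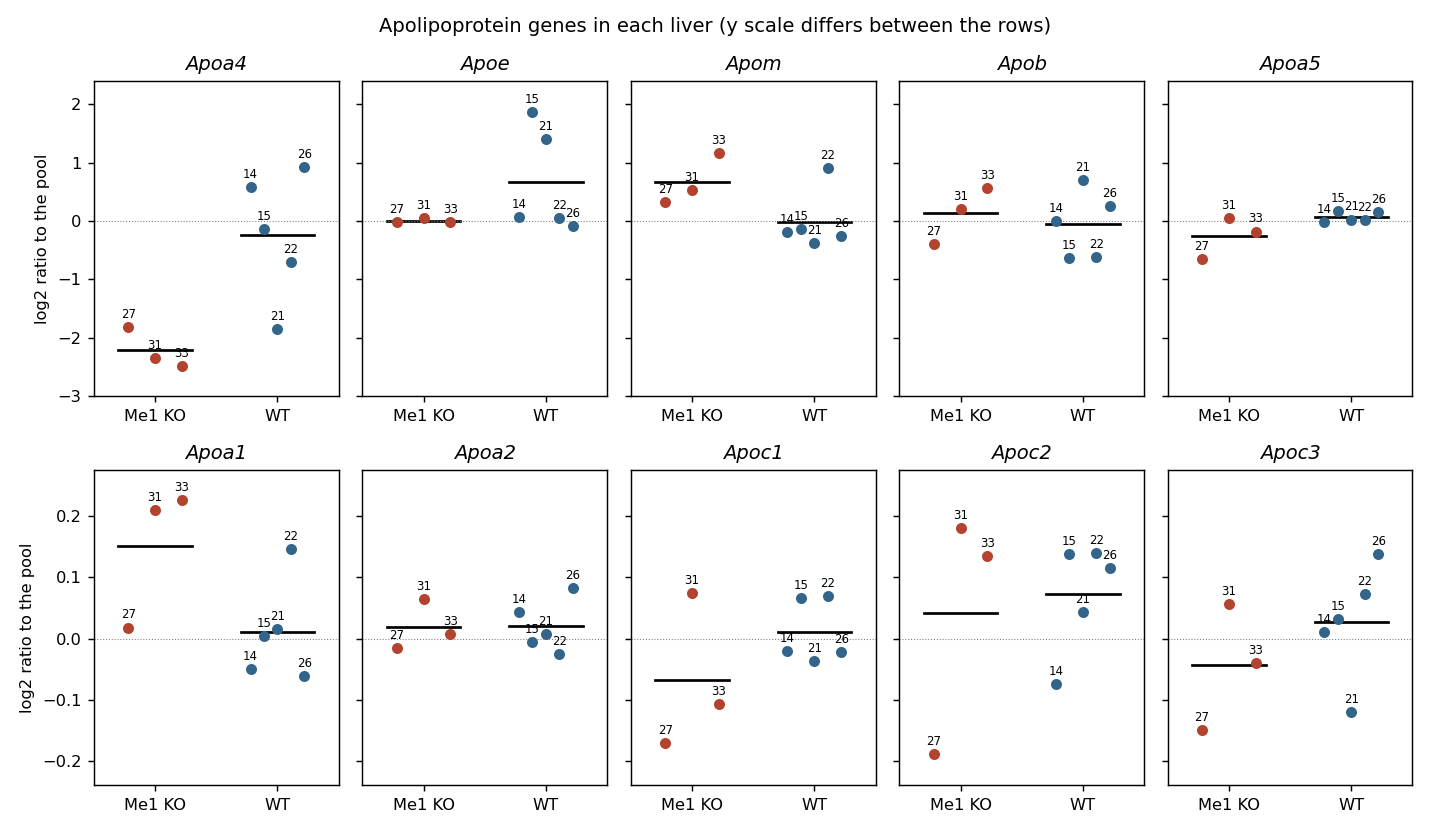
Log2 ratio to the pool (y axis) of each apolipoprotein gene in the 3 Me1 knockout livers (red, left) and the 5 wild-type livers (blue, right), with mouse numbers; the bar is the group mean, and the rows have different scales. Apoa4 lies between -1.82 and -2.48 in the knockouts, with wild-type mouse 21 at -1.86, and Apoe stands apart only in wild-type mice 15 and 21.

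Among the proteins of high-density lipoprotein, Apoa1 activates the enzyme that esterifies cholesterol on the particle. Its log2 ratio read 0.018, 0.21 and 0.23 in the knockouts, against -0.049, 0.0047, 0.015, 0.15 and -0.060 in the wild types. Knockout mice 31 and 33 lay above every wild type, and mouse 27 lay among them. The difference was 0.14 ± 0.068 (SE, adjusted p = 0.567, limma), or -0.16 with the knockout sign turned. Of 10 hepatocyte markers, 8 were higher and 2 lower in the knockout, with a median difference of 0.15 (2 higher, 8 lower and -0.14 with the knockout sign turned). Their per-mouse medians were 0.046, 0.24 and 0.12 in the knockouts and ran from -0.13 to 0.14 in the wild types. Their part in the Apoa1 difference was not tested.

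Apoa2, the second protein of the same particle, was the steadiest member. It read -0.015, 0.065 and 0.0076 in the knockouts and 0.043, -0.0060, 0.0073, -0.024 and 0.083 in the wild types, so the groups covered the same narrow span. Knockout minus wild type was -0.0014 ± 0.043 (95% interval -0.10 to 0.099), or -0.040 with the knockout sign turned.

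Apom binds sphingosine 1-phosphate and takes it into high-density lipoprotein. The knockouts read 0.32, 0.53 and 1.16. The wild types read -0.20, -0.14, -0.38, 0.91 and -0.25. All 3 knockouts exceeded 4 of the 5 wild types, and mouse 22 alone made the groups overlap. The difference was 0.68 ± 0.31 (adjusted p = 0.549, limma), a 1.61-fold higher mean in the knockout, with a 95% interval from -0.034 to 1.40. It was 0.92 without wild-type mouse 22 (adjusted p = 0.114) and 0.44 without knockout mouse 33 (adjusted p = 0.98). With the knockout sign turned it was -0.66. Mice 22 and 33 hold the highest wild-type and knockout values and are also the arrays of widest spread. Without both, the difference was 0.67 (adjusted p = 0.12).

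Apoa4 is a lipid-binding protein that, in the liver, enlarges secreted triglyceride-rich particles. Its log2 ratios were -1.82, -2.34 and -2.48 in the knockouts. The wild types gave 0.58, -0.13, -1.86, -0.71 and 0.92. The knockouts were all low and close together, while the wild types spanned 2.78 log2 units and mouse 21 reached the knockout range. The difference was -1.98 ± 0.58 (unadjusted p = 0.00887, adjusted p = 0.412, limma), a 3.93-fold lower mean in the knockout, with an interval from -3.31 to -0.65. Among 19896 named genes, 16 including Apoa4 (0.0804%) had a difference at least as large, and with the knockout sign turned 11 did (0.0553%). Its spread between wild types was also among the widest, exceeding that of 99.8% of named genes.

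Leaving out any 1 mouse kept the Apoa4 difference between -2.38 and -1.69, and adjusted p stayed between 0.192 and 0.98. Without wild-type mouse 21 the groups no longer overlapped (adjusted p = 0.221), as for 11.4% of all features. The same held without knockout mouse 27, as for 17.3% of features (adjusted p = 0.393). Under quantile normalization of all 8 arrays the Apoa4 difference was smaller, at -1.55 (unadjusted p = 0.0389, adjusted p = 0.611, limma). A trended, robust prior kept the difference of -1.98 but gave weaker p values (unadjusted p = 0.0357, adjusted p = 0.607, limma). Set against the pool alone, the 3 knockouts averaged -2.22 with an adjusted p of 0.0241, in a fit that called 0.594% of all features and leaves out the spread between wild types. With the knockout sign turned, Apoa4 would be higher in the knockout, at 2.46 (adjusted p = 0.286), and the groups would not overlap. That was the 1 member of 10 without overlap under that reading, against 10.8% of all features. Because Apoa4 is mainly an intestinal product, markers of the enterocyte were read beside it. Of 8 such markers 5 were higher and 3 lower, with a median difference of 0.027 (-0.022 with the knockout sign turned). Their per-mouse medians ran from -0.045 to 0.020 in the knockouts and from -0.087 to 0.031 in the wild types, with 0.011 in mouse 21.

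**Figure D2:**
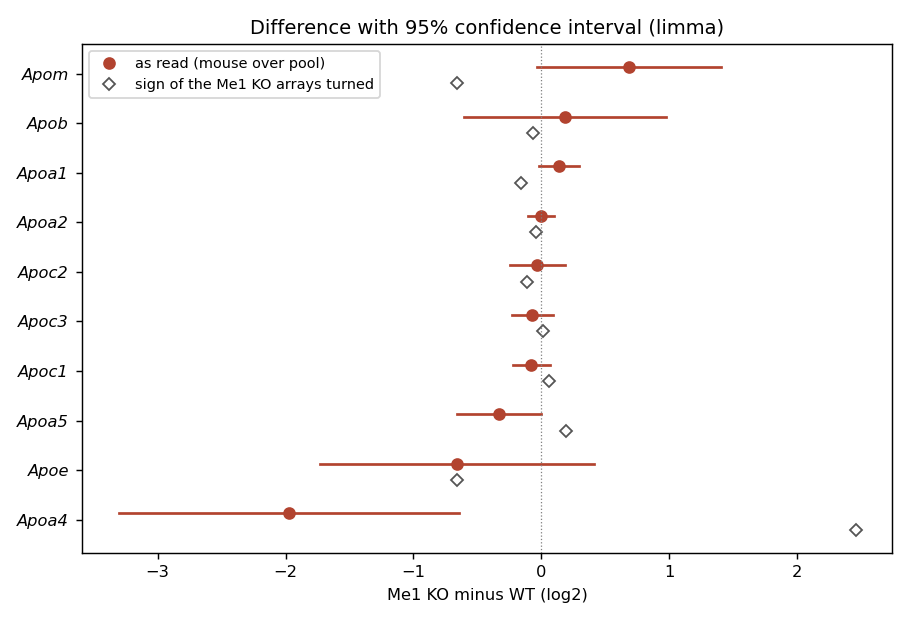
Difference of Me1 knockout minus wild type (x axis, log2) for the 10 genes, n = 3 and 5; filled circles with 95% confidence intervals take the ratios as mouse over pool, and open diamonds turn the sign of the knockout arrays. Apoa4 moves from -1.98 to 2.46 between the readings, and Apoe stays at -0.66.

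Among the members that govern triglyceride in plasma, Apoa5 stimulates lipolysis by lipoprotein lipase. The knockouts stood at -0.66, 0.057 and -0.18, against -0.025, 0.17, 0.024, 0.024 and 0.15 in the wild types. Knockout mice 27 and 33 lay below every wild type, and mouse 31 lay among them. The difference was -0.33 ± 0.14 (unadjusted p = 0.049, adjusted p = 0.537, limma). Without knockout mouse 27 it was -0.13 (adjusted p = 0.629), and it was 0.19 with the knockout sign turned. The unadjusted p of Apoa5 was 0.0552 under quantile normalization and 0.156 with array weights (limma).

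The 3 small C apolipoproteins varied little. Apoc2, the cofactor that lipoprotein lipase needs, read -0.19, 0.18 and 0.14 in the knockouts and between -0.074 and 0.14 in the wild types. Its difference was -0.030 ± 0.093 (adjusted p = 0.922, limma) and became 0.085 without mouse 27. Apoc3, which slows lipolysis and particle uptake, read -0.15, 0.057 and -0.039 in the knockouts and between -0.12 and 0.14 in the wild types, a difference of -0.070 ± 0.070.

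Apoc1, which inhibits lipid exchange and particle uptake, read -0.17, 0.074 and -0.11 in the knockouts and between -0.036 and 0.070 in the wild types, a difference of -0.079 ± 0.063. Without knockout mouse 31 the Apoc1 difference was -0.15 and that of Apoc3 -0.12, and without mouse 27 they were -0.028 and -0.018. Within all 3 C genes and Apoa5, mouse 27 had the lowest value of the 8 mice and mouse 31 the highest of the knockouts. The intervals ran from -0.22 to 0.066 for Apoc1, from -0.24 to 0.18 for Apoc2 and from -0.23 to 0.091 for Apoc3. With the knockout sign turned the differences were 0.056 in Apoc1, -0.11 in Apoc2 and 0.017 in Apoc3.

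Of the members that receptors recognise, Apob is the structural protein bound by the low-density lipoprotein receptor. Values of -0.39, 0.20 and 0.57 were measured in the knockouts, against -0.0053, -0.64, 0.70, -0.61 and 0.25 in the wild types. Both groups held high and low mice, and the knockout values lay wholly within the wild-type range. The difference of 0.19 ± 0.34 (adjusted p = 0.865, limma) had an interval from -0.60 to 0.98. It was -0.069 with the knockout sign turned, -0.034 without knockout mouse 33 and 0.45 without knockout mouse 27. Only 1 probe read this very long transcript.

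Apoe directs remnant particles to liver receptors and is made by hepatocytes and macrophages. It measured -0.017, 0.045 and -0.027 in the knockouts. It measured 0.066, 1.88, 1.40, 0.049 and -0.083 in the wild types. The 3 knockouts and 3 of the wild types stood close to the pool, and wild-type mice 15 and 21 stood 3.67-fold and 2.63-fold above it. The difference of -0.66 ± 0.47 (adjusted p = 0.683, limma) had a 95% interval from -1.73 to 0.41 and was -0.36 without wild-type mouse 15. Turning the sign of the knockout arrays left it at -0.66, since the knockouts sat at the pool.

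The 2 high Apoe values had no counterpart in the genes beside it. Apoc1, the next gene on chromosome 7, read 0.066 and -0.036 in wild-type mice 15 and 21, Apoc2 read 0.14 and 0.044, and Tomm40, on the other side, read 0.0028 and -0.11. Markers of Kupffer cells and macrophages varied among the wild types, and their part in the Apoe values was not tested. In wild-type mouse 15 the receptor Marco (0.58) and the lysozyme Lyz2 (0.17) were the highest of the wild types, both singled out after their values were seen. In wild-type mouse 21 Marco read -0.16 and Lyz2 0.010. Others of the list lay below the pool in mouse 15, such as Mpeg1 (-0.35) and C1qa (-0.33). The median over 12 such markers was -0.17 and -0.16 in wild-type mice 15 and 21, against 0.16, 0.25 and -0.38 in wild-type mice 14, 22 and 26. It was -0.24, -0.11 and -0.23 in the knockouts, where 2 of the 12 were higher and 10 lower than in the wild types, with a median difference of -0.18 (10 higher, 2 lower and 0.23 with the knockout sign turned).

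Apoe also stood apart in its mean over the wild types. If the pool held equal parts of these 5 mice, the mean of their linear ratios would be 1. That mean was 1.87 for Apoe and lay between 1.009 and 1.054 for the other 9 members. Among 19896 named genes 3 reached 1.87, Apoe included (0.0151%). The median over 533 named genes with a wild-type SD of at least 0.5 was 0.999. With the opposite sign the Apoe mean was 0.727, the lowest of the 19896 named genes, against a median of 1.17 over those 533. Whether the pool held the same 5 mice is not stated.

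The members thus fell apart in how much littermates differed. The wild-type SD of Apoa4 (1.11), Apoe (0.91), Apob (0.58) and Apom (0.53) exceeded that of 99.8%, 99.6%, 98.1% and 97.6% of named genes. The SD of Apoa2 (0.043), Apoc1 (0.052), Apoa1 (0.082), Apoa5 (0.086), Apoc2 (0.091) and Apoc3 (0.096) lay below the median SD of named genes, 0.11.

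Apoa1, Apoc3, Apoa4 and Apoa5 lie next to each other on mouse chromosome 9, and Apoc2, Apoc4, Apoc1 and Apoe on chromosome 7. Of the cluster genes measured, Apoa4 and Apoe were the ones that left the pool by more than 1 log2 unit in any mouse. In knockout mice 27, 31 and 33, Apoa4 read -1.82, -2.34 and -2.48. On its sides, Apoc3 read -0.15, 0.057 and -0.039 in these mice, and Apoa5 read -0.66, 0.057 and -0.18. Of 8 measured neighbours outside the chromosome 9 cluster, 1 was higher and 7 lower in the knockout, with a median of -0.037 and differences from -0.28 to 0.031. The 3 with the smallest p were the convertase Pcsk7 at -0.28 ± 0.095, the adhesion molecule Cadm1 at -0.25 ± 0.12 and the lysosomal protein Sidt2 at -0.13 ± 0.084. Of 9 neighbours of the chromosome 7 cluster, 2 were higher and 7 lower, with a median of -0.036. The nuclear factor subunit Relb stood at -0.62 ± 0.16 (adjusted p = 0.367, limma), without overlap, the adhesion molecule Nectin2 at -0.35 ± 0.16 and the IkB family member Bcl3 at -0.16 ± 0.097. None of the neighbours passed the test. Under the turned knockout sign the medians were 0.061 on chromosome 9, where 5 were higher and 3 lower, and 0.059 on chromosome 7, where 6 were higher and 3 lower.

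**Figure D3:**
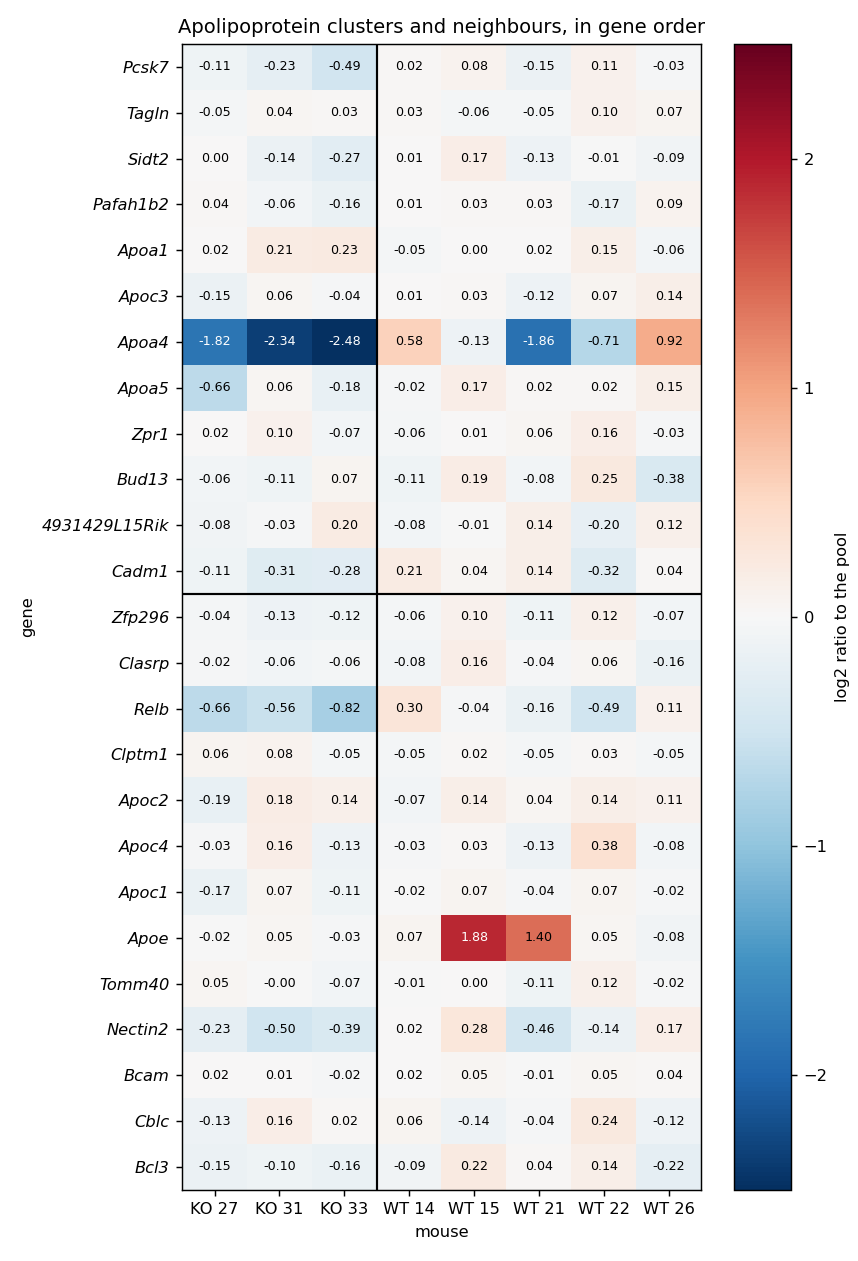
Log2 ratio to the pool (colour and printed value) in the 3 Me1 knockout and 5 wild-type livers (columns) for the measured genes of the chromosome 9 cluster (above the line) and the chromosome 7 cluster (below it) with neighbours, in gene order. Only Apoa4 and Apoe exceed 1 in either direction.

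The letters before the start of 3 chromosome 9 genes are printed because these genes are close together yet had different values. Promoters from RefSeq (build GRCm38.p6) were used for 8 of the 10 members, those other than Apoc1 and Apoc3; of several start sites the one furthest upstream was taken, and the 250 bases before it were read 5′ to 3′. The windows, all on the plus strand, are chr9:46228380-46228629 for Apoa1, chr9:46240594-46240843 for Apoa4 and chr9:46268358-46268607 for Apoa5. Capitals mark matches to 5 motifs searched on both strands, chosen with the sequences in view: TATAAA (the TATA box), CAAAGTNCA (letters bound by HNF4-type receptors), AGGTCA (a nuclear receptor site), CACGTG (the E-box) and GTTAAT (part of an HNF1 site). No matches overlapped.
Apoa1: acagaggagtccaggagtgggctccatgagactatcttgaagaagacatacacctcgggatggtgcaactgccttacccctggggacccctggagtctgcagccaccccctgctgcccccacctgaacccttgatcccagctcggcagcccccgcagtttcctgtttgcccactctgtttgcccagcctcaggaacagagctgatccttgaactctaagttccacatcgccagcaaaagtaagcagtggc
Apoa4: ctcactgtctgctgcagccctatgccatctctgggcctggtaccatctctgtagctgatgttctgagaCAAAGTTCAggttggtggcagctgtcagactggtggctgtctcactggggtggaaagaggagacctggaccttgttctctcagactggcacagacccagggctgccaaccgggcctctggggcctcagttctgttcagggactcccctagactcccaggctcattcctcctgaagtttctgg
Apoa5: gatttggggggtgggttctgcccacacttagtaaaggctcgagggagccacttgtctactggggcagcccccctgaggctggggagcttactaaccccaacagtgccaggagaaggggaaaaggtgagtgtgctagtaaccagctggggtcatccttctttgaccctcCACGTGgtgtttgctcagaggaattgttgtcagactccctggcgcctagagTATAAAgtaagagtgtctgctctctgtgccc
The Apoa4 window held CAAAGTTCA, from base 182 to 174 before the start. A match to CAAAGTNCA is in 1.2% of the 32851 windows of the table. The Apoa5 window held TATAAA, from base 31 to 26 before the start, and CACGTG, from base 82 to 77. These are in 12.4% and 6.0% of windows. AGGTCA and GTTAAT, in 14.0% and 6.4% of windows, were not among these letters in the 3 windows, and the Apoa1 window held none of the 5. A match is a string of letters, not a measured binding site.

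Genes that work with the apolipoproteins were described from lists, and none of their members passed the test. Of 13 other apolipoproteins measured, 3 were higher and 10 lower in the knockout, with a median of -0.060. Apon, a plasma apolipoprotein of mice, stood at -0.33 ± 0.11. The interferon-inducible Apol9b stood at -0.81 ± 0.47, and Apol8 at 0.16 ± 0.099.

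Of 12 genes of lipoprotein assembly and secretion, 7 were higher and 5 lower, with a median of 0.016. The scramblase Tmem41b, which serves lipoprotein export, read 0.49, 0.18 and 0.51 in the knockouts and at most 0.13 in the wild types, without overlap, a difference of 0.38 ± 0.095 (adjusted p = 0.349, limma). The sorting receptor Sort1, which binds Apob, stood at 0.67 ± 0.20 (adjusted p = 0.416, limma), and Sar1b, a GTPase of the vesicles that export large particles, at 0.14 ± 0.083. Named outside the rule, for their role with Apob and after their values were seen, the lipid transfer protein Mttp stood at -0.076 ± 0.11 and the Apob mRNA editing enzyme Apobec1 at -0.49 ± 0.31.

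Of 8 genes of lipolysis and remodelling in plasma, 4 were higher and 4 lower, with a median of -0.013. Lpl, the lipoprotein lipase that Apoc2 activates, read -0.59, -0.57 and -0.46 in the knockouts and from -0.25 to 0.39 in the wild types. The groups did not overlap, and the difference was -0.52 ± 0.14 (adjusted p = 0.393, limma). The endothelial lipase Lipg stood at -0.47 ± 0.19 and the hepatic lipase Lipc at 0.32 ± 0.14.

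Of 14 receptors and cholesterol exporters, 2 were higher and 12 lower, with a median of -0.17. The heparan sulphate proteoglycan Sdc1, a receptor for remnants, stood at -0.35 ± 0.15, the sterol exporter Abcg8 at -0.41 ± 0.19 and Amn, a partner of the Apoa1 receptor cubilin, at -0.16 ± 0.075. Of 21 transcription factors of apolipoprotein genes, 9 were higher and 12 lower, with a median of -0.027. All lay between -0.18 and 0.19. Usf1 stood at -0.13 ± 0.065, the oxysterol receptor Nr1h2 at -0.12 ± 0.062 and the glucose-responsive factor Mlxipl at 0.19 ± 0.11. With the knockout sign turned, the medians of these 5 lists, in the order given, were 0.050, -0.064, -0.086, 0.16 and 0.032.

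**Figure D4:**
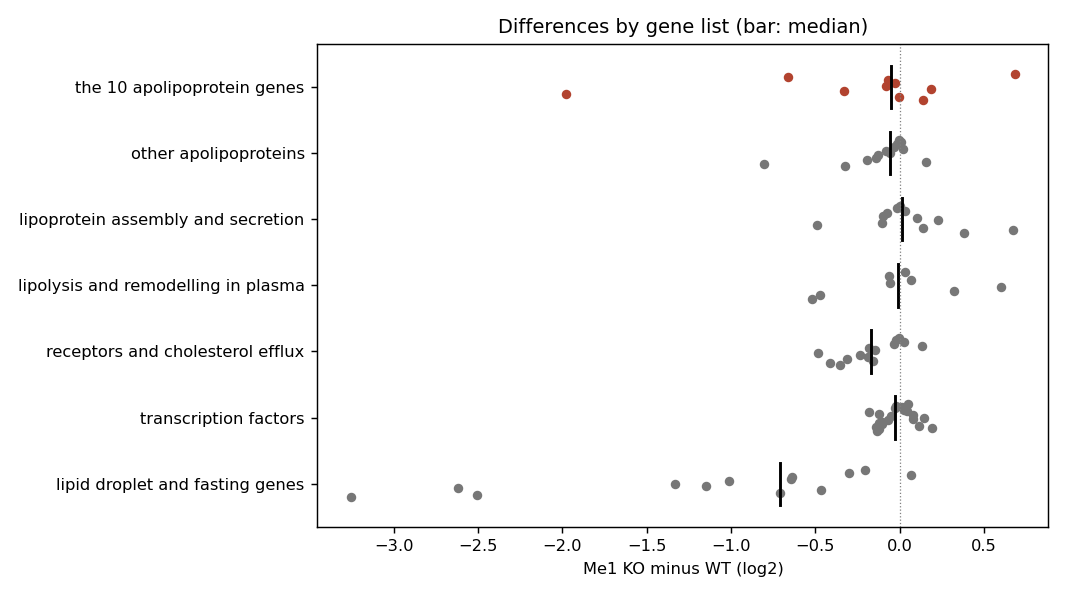
Difference of Me1 knockout minus wild type (x axis, log2) of each gene in the apolipoprotein set (red) and in 6 further lists (grey), with a bar at each list's median. The lipid droplet and fasting genes have a median of -0.71, and the other medians lie between -0.17 and 0.02.

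Genes of the lipid droplet and of fasting, some of which accompany Apoa4 in fatty mouse liver, were lower in 12 of 13 cases and higher in 1, with a median of -0.71 (0.86 with the knockout sign turned). Earlier results of these livers were known when this list was made. Neither its direction nor its count of low p values is therefore independent evidence. Unadjusted p was under 0.05 in 8 of the 13, against 9.28% of all features, and adjusted p in 0. Cidea, a protein that fuses lipid droplets, read -2.96, -3.92 and -3.89 in the knockouts and from -1.67 to 0.94 in the wild types, a difference of -3.26 ± 0.56 (adjusted p = 0.191, limma). Mogat1, an acyltransferase of triglyceride synthesis, stood at -2.51 ± 0.48 and Fitm1, a protein of droplet formation, at -0.71 ± 0.16, both without overlap. In the wild types the resemblance to Apoa4 was incomplete. Mouse 26 was highest in Apoa4 (0.92), Cidea (0.94) and Mogat1 (0.89). Mouse 21, lowest of the wild types in Apoa4 (-1.86), read -0.28 in Cidea and -0.49 in Mogat1. Mouse 22 was the lowest wild type in both of these, at -1.67 and -1.36, and read -0.71 in Apoa4.

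**Figure D5:**
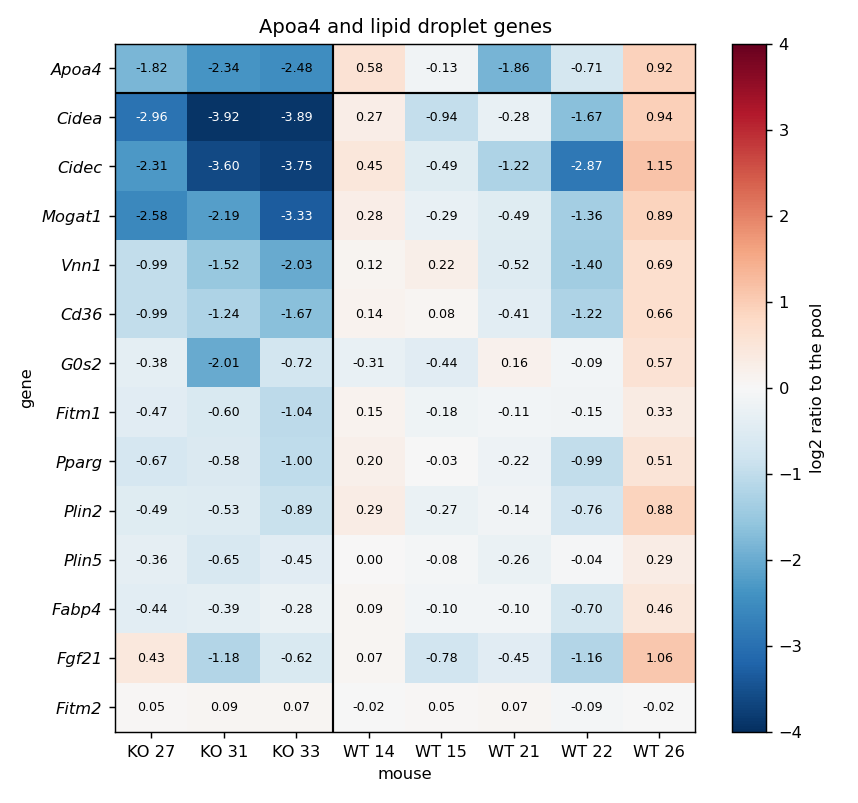
Log2 ratio to the pool (colour and printed value) of Apoa4 (top) and of 13 lipid droplet and fasting genes (ordered by difference) in the 3 Me1 knockout and 5 wild-type livers. Wild-type mouse 21 is low in Apoa4 (-1.86) while mouse 22 is the lowest wild type in Cidea (-1.67) and Mogat1 (-1.36).

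Markers of other cells of the liver were read beside these results, and their part in them was not tested. Stellate cell markers were higher in 2 and lower in 6 of 8 cases, with a median of -0.14. The collagens Col3a1 and Col1a1 stood at -0.99 ± 0.39 and -1.29 ± 0.52, and Rgs5 at -0.12 ± 0.10. Wild-type mouse 22 read -1.19 in Col3a1 and -1.67 in Col1a1, within the knockout range. The 2 higher markers were Reln at 0.19 ± 0.15 and Des at 0.078 ± 0.070. Endothelial markers were higher in 4 and lower in 4 of 8 cases, with a median of 0.016; Kdr stood at 0.21 ± 0.056, Lyve1 at -1.01 ± 0.36 and Clec4g at 0.20 ± 0.081. Cholangiocyte markers were higher in 2 and lower in 4 of 6 cases (median -0.025), adipocyte markers higher in 4 and lower in 2 of 6 (median 0.028), and pancreatic acinar markers higher in 4 of 4 (median 0.16). Under the turned knockout sign these medians were 0.15 for stellate, -0.020 for endothelial, 0.094 for cholangiocyte, -0.017 for adipocyte and -0.10 for acinar markers.

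The named genes whose values over the 8 mice were most like those of a member were found by Pearson's r, as a description. The knockout columns were taken as read. The search was not repeated with their sign turned or in the wild types alone. The genes named are the highest of 19896, and many others came close: 225 genes had r over 0.9 with Apoa4, 208 with Apoa1 and 187 with Apom, but 6 with Apoe. Nearest to Apoa4 were the olfactory receptor Olfr1442 (r = 0.990, n = 8), Ndst3, an enzyme of heparan sulphate synthesis (0.981), and the zinc finger gene Glis1 (0.978). Nearest to Apom were the serotonin receptor Htr6 (0.983), the purine enzyme Adsl (0.981) and Dcdc2c (0.977).

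Nearest to Apob were the lipid kinase Pip5k1b (r = 0.972, n = 8), Lsm14b (0.965) and AY702103 (0.957). Nearest to Apoe were Arhgef19 (0.924), the transcription factor Pou2f1 (0.917) and C130013N14Rik (0.911). Arhgef19 read only 0.16 and 0.13 in wild-type mice 15 and 21, where Apoe read 1.88 and 1.40. Nearest to Apoa1 were Atg14 (0.984), Map1b (0.984) and Cracr2b (0.982), and to Apoa2 Tmc2 (0.975), Ddah2 (0.963) and Lrp2bp (0.962). Nearest to Apoa5 were Bcl2a1d (0.973), Ccdc34 (0.952) and Mrps23 (0.949). Their likeness by rank was weaker (Spearman's rho 0.762, 0.548 and 0.762). Knockout mouse 27, lowest in Apoa5, was also lowest in each of them, at -0.27, -0.35 and -1.29. For the C genes they were Lamp1 (0.964), Pcbp4 (0.948) and Ubxn1 (0.945) with Apoc1, Med31 (0.955), Lce1a2 (0.953) and Cmtm5 (0.949) with Apoc2, and Coq3 (0.950), Mlycd (0.949) and Trappc2l (0.942) with Apoc3. For Med31 with Apoc2, Spearman's rho was 0.595. The values of each pair share the pool and the arrays.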

How the data were processed

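Liver RNA of 3 Me1 knockout and 5 wild-type mice was measured on 2-colour arrays (Cy3 and Cy5) against a common pool, with a dye swap, per the labels and the series' design text. The deposited values are log10 ratios as inferred from the values, 1 column per mouse, with 39556 probes and 0 missing values; how the authors corrected background, normalized and merged swapped arrays is not given in the sources used here. Spot brightness was not used here, and the number of arrays limits the precision. Array medians lay between -0.017 and 0.025 on the log2 scale.

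Of 39556 probes, 23283 had 1 symbol in the platform annotation, 16273 had none, and no probe had several. In the RefSeq table of GRCm38.p6, which also gave gene order, 16574 of these symbols were current, 6594 were replaced by the current one and 115 stayed as listed. Log10 values were multiplied into log2 ratios, and probes sharing a symbol were averaged. Groups came from the titles; mouse numbers pair nothing. Knockout and wild type were compared with lmFit and eBayes of limma 3.58.1 (R 4.3.3) over 36169 features, with Benjamini-Hochberg adjustment, checked on simulated data. The simulation used independent normal noise, with changes placed in 200 features of below-median spread. It therefore does not cover widely varying members such as Apoa4, or features that vary together. Named are all members, the 3 genes of smallest p in each pathway or neighbour list, and the 3 genes of highest Pearson r for a member; stellate and endothelial markers are named outside that rule, after their values were seen. Members and lists were chosen with earlier results of these data known. Alternatives covered sign, log base, centring, quantile normalization, array weights, single probes, a variance filter, the eBayes prior, left-out mice and the pool as the comparator.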

Additional observations from a re-analysis of the deposited data

Results flagged for a closer look

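Among the wild types, Apom in mouse 22 read 0.91 on the log2 scale, while the other 4 wild types lay between -0.38 and -0.14. The gap to the nearest of them was 0.816 of the group's whole range, above Dixon's critical value of 0.710 for 5 samples. Of 11 genes tested in this way (the 10 members and Me1), this was the 1 that stood out; about 1 in 20 such groups does so by chance. Knockout groups of 3 were not tested.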

How the results depend on the processing

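No paired analysis was possible because the mouse numbers are not shared between the genotypes. The members called at adjusted p 0.05 stayed at 0 in all alternatives but the knockouts against the pool, where Apoa4 alone passed (-2.22, 1 member). Turning the knockout columns alone gave Apoa1 -0.16, Apoa4 2.46, Apoa5 0.19, Apob -0.0689, Apoc1 0.0562, Apoc3 0.0167 and Apom -0.66, and 1 member did not overlap. With the sign of all arrays turned, the values were Apoa1 -0.14, Apoa2 0.0014, Apoa4 1.98, Apoa5 0.33, Apob -0.19, Apoc1 0.0793, Apoc2 0.0302, Apoc3 0.0703, Apoe 0.66, Apom -0.68 and Me1 -0.0861, and the median was 0.0503. Array weights gave 207 calls over all features (10 in the fit reported), Me1 -0.53, Apoa2 0.0009 and Apoc2 0.0501. At an unadjusted p of 0.05 they gave Apoa1, Apoa4 and Apom, with 7375 of 36169 features. Quantile normalization gave Apoa4 and Apom at that p, with 2875 features. Single probes gave 16 calls, leaving out the least variable 25% of features 17, and a trended, robust prior 0 in limma (2844 features at an unadjusted p of 0.05). Without wild-type mouse 22 and knockout mouse 33, 19 features were called, 2 members did not overlap (23.4% of all features), Me1 was -0.0409 and Apob -0.17. Against the pool, 215 features were called, and Me1 was -0.22, Apoa2 0.0194, Apoc2 0.0422 and Apoe 0.0006. With 1 mouse left out, the calls over all features ran from 6 to 65 (6 without wild-type mouse 14, 65 without 22, 18 without 26 and 17 without knockout mouse 27). The members at an unadjusted p of 0.05 ran from 1 to 3 (2 in the fit reported). Of all 36169 features, those at that p ran from 1710 without knockout mouse 33 to 5863 without wild-type mouse 22 (3355 in the fit reported). The members without overlap ran from 0 to 2. These were Apoa1 and Apoa4 without knockout mouse 27 (17.3% of all features did not overlap there), Apoa5 and Apoc1 without 31 (12.3%), Apoa4 without wild-type mouse 21 (11.4%), Apoa1 and Apom without 22 (16.1%), and Apoe without 26 (9.59%). Apoa4 was at an unadjusted p of 0.05 in each of these fits. The differences ran from -0.43 to 0.38 in Me1, from -0.0244 to 0.0158 in Apoa2, from -0.0335 to 0.45 in Apob and from -0.10 to 0.0852 in Apoc2. The filter on variance left Apoa2 out. The cause of these changes was not tested. Small differences near 0 changed sign easily, and 3 against 5 arrays left wide intervals for Apoa4, Apoe, Apob and Apom.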
